A study of Mus musculus with 6 samples.

Results

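A mouse circRNA array carries, outside its circRNA set, 50 probes whose names begin with A_51, and their signal in the hippocampus was described and compared between surgery and control mice. They were chosen by name alone, as all probes of that prefix that are not marked as controls. They make up 50 of 14330 non-control probes, beside 14236 circRNA probes, and each was printed as 10 spots per array against 1 spot for a circRNA probe. The files pair each with a transcript accession, and 44 of the 50 accessions, 43 of them RefSeq mRNA accessions, could be paired with a gene symbol.

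The study followed postoperative cognitive dysfunction (POCD) in male C57Bl/6 mice aged 18 months. The surgery group (n = 3) had intramedullary fixation of an open tibial fracture under isoflurane, and the control group (n = 3) is labelled as control. Hippocampi were taken on day 3, and the RNA of each was hybridized to 1 array in 1 colour. Per the paper, tissue was taken after behavioural tests, an open field test and fear conditioning with tones and footshocks. Lidocaine and tetracaine were applied locally for postoperative pain. The labels name no transgene or further treatment, and 3 arrays per group limit the precision of every value below.

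A circRNA is a closed loop of RNA joined by back-splicing, and its probe is usually laid across that junction. An mRNA is linear, and a probe named by an mRNA accession is named for that transcript. Whether it also reads circular RNA of the same gene is not known here. The paper labelled the RNA by the array maker's standard protocols and does not state whether linear RNA was removed first. The A_51 signals are therefore not taken as plain mRNA levels. The hippocampus holds neurons, astrocytes, oligodendrocytes, microglia and vessels, and the genes behind the A_51 probes range from brain genes to genes best known from the nose, pigment cells or testis. In whole tissue, fewer cells of a type and less RNA per cell cannot be told apart.

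Of 34 marker genes of hippocampal and neighbouring cell types that were looked for, Mbp, the myelin basic protein of oligodendrocytes, was the 1 gene with an A_51 probe. Its signal was well above background on all 6 arrays. Of 22 genes of inflammation, synapse and housekeeping, Actb was the 1 gene with such a probe. The cell makeup of the tissue could therefore not be checked from these probes beyond myelin.

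A level here is the log2 intensity of a probe minus the 75th percentile that circRNA probes reached on that array. Brightness depends on the probe as well as on its target, so the order of probes is not an order of transcript abundance. The A_51 probes were dimmer than the circRNA probes. The median level over the 50 probes was -3.01, against -1.46 for the circRNA probes. The gap between the medians was -1.88, -1.54 and -1.55 on surgery arrays 1 to 3, and -1.43, -1.44 and -1.47 on control arrays 1 to 3. All 3 surgery arrays had a wider gap than all 3 control arrays, and surgery 1 had the widest. Ranked among the circRNA probes, the A_51 probes lay at a median percentile of 21.6, with Cav2 lowest at 0.237. The circRNA probes well above background on at least 3 arrays were also cut into 4 equal bins from dim to bright. Of all 50 A_51 probes, 29, 9, 4 and 8 fell in each.

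**Figure D1:**
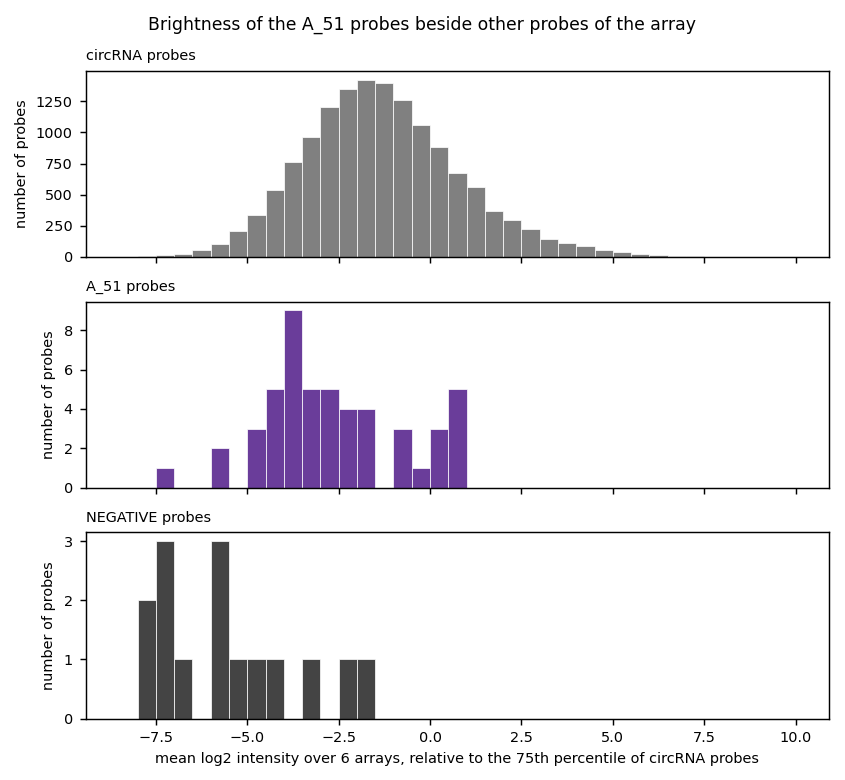
Number of probes (y axis) by level, the mean over 6 arrays of log2 intensity minus the 75th percentile of circRNA probes (x axis), for circRNA probes, A_51 probes and NEGATIVE probes. The median A_51 probe lies at -3.01, below the circRNA median of -1.46 and above the NEGATIVE median of -5.67.

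Among the brightest were the probes for Olfr1307, an olfactory receptor (0.87), Actb, cytoplasmic actin (0.87), and Apoe, the lipid carrier made mainly by astrocytes (0.81). The 4 dimmest were those for Cav2, a caveolin (-7.01), Tyr, the tyrosinase of pigment cells (-5.84), Kcnn2, a calcium-activated potassium channel (-5.78), and Bambi, a decoy receptor of TGF-beta signalling (-4.86). Before the log scale, the mean intensity of an A_51 probe on an array ran from 1.29 for Cav2 to 1183 for Olfr1307. None of their spots was saturated.

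The array also carries 15 probes named NEGATIVE, which gave a floor measured in the same way. Their mean levels ran from -7.70 to -1.69 with a median of -5.67, and 5 of the 15 were well above background on all 6 arrays. The same NEGATIVE probe was the brightest on every array. After its mean of -1.69 came means of -2.02 and -3.39, so the brightest NEGATIVE probe is a high bar set by a single probe. In all, 47 of the 50 A_51 probes lay above the median NEGATIVE probe on every array. However, 12 lay above the brightest NEGATIVE probe on every array, 32 lay at or below it on every array, and 6 did so on some. The 12 included Olfr1307, Actb, Apoe, Pex11a, Mbp, Gpi1, Olfr166, H2-Q7, Lhx1, Gamt and the unpaired A_51_P191463. Olfr1307 and Olfr166 belong to the large and similar family of olfactory receptors, and whether their probes also read other members is not known from the files.

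**Figure D2:**
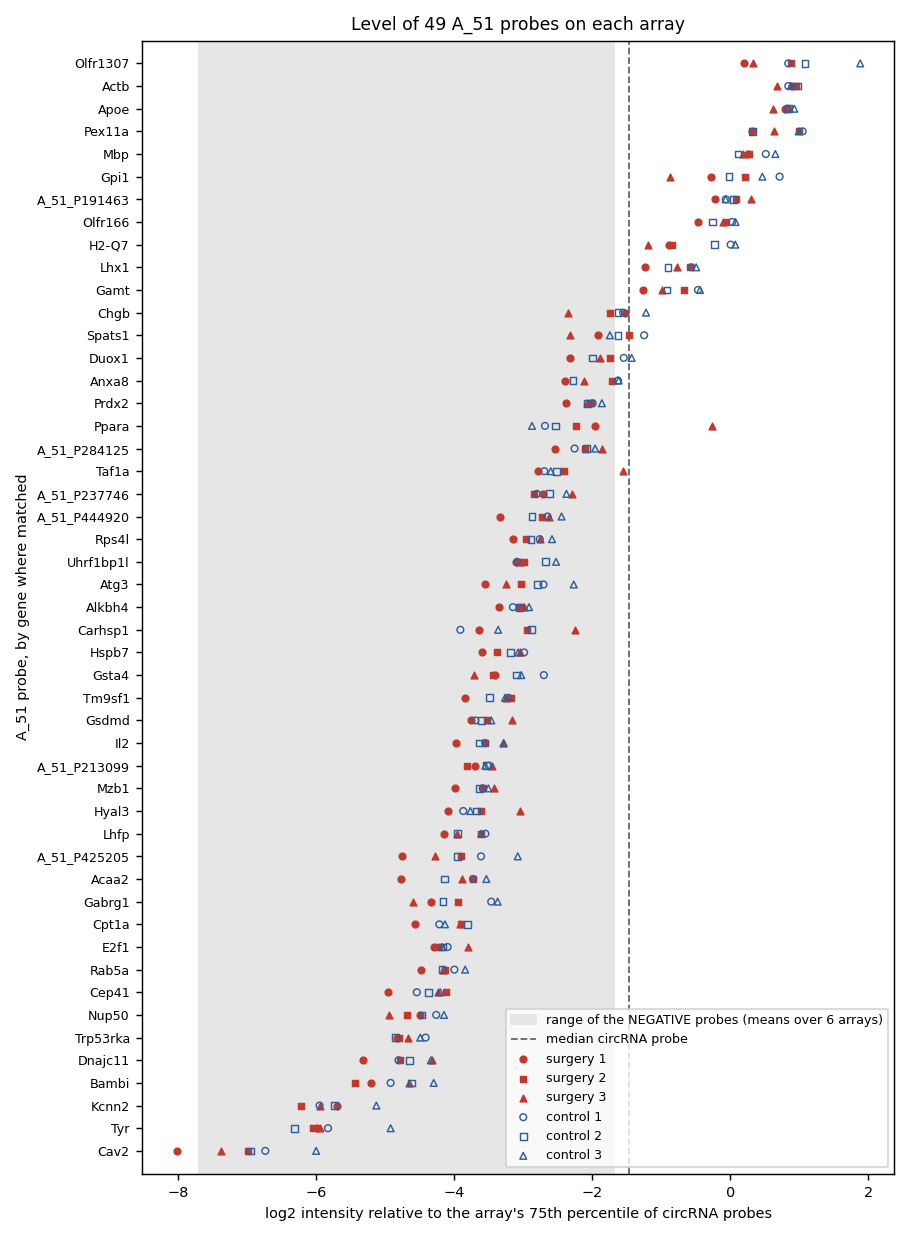
Level of 49 of the A_51 probes (x axis, log2 intensity minus the 75th percentile of circRNA probes) on each array, with filled red marks for surgery, open blue marks for control, a grey band for the range of NEGATIVE probes and a dashed line for the median circRNA probe. Cav2 sits lowest, between -8.02 and -6.00, and Olfr1307, Actb and Apoe sit at the top.

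Spots of 1 probe on 1 array are technical repeats. Of the 3000 A_51 spots over the 6 arrays, 134 were left out as uneven or outlying by the scanner software, and 2756 of the remaining 2866 were well above background. Within an array, the SD over the spots of an A_51 probe had a median of 0.093 on the log2 scale, and 28 probes had a median SD under 0.1. It was smallest for Gpi1, a glycolytic enzyme (0.033), Prdx2, a peroxiredoxin (0.034), and A_51_P191463 (0.037). It was largest for the dimmest 3 probes, Cav2 (0.51), Tyr (0.30) and Kcnn2 (0.24). The median was 0.044 among probes at or above the circRNA median and 0.11 among those below it.

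Arrays of the same group differed more than spots did. The SD between arrays within groups had a median of 0.28, from 0.086 for Apoe to 0.77 for Ppara, with Carhsp1, an RNA-binding protein, at 0.61 and Cav2 at 0.51. It was larger than the SD of single spots for 49 of 50 probes, by a median of 2.70 times, and A_51_P213099 was the exception. An array value is a mean over spots, however, and the SD expected of such a mean from the spot SD had a lower median of 0.030. The median for all probes tested was 0.21.

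**Figure D3:**
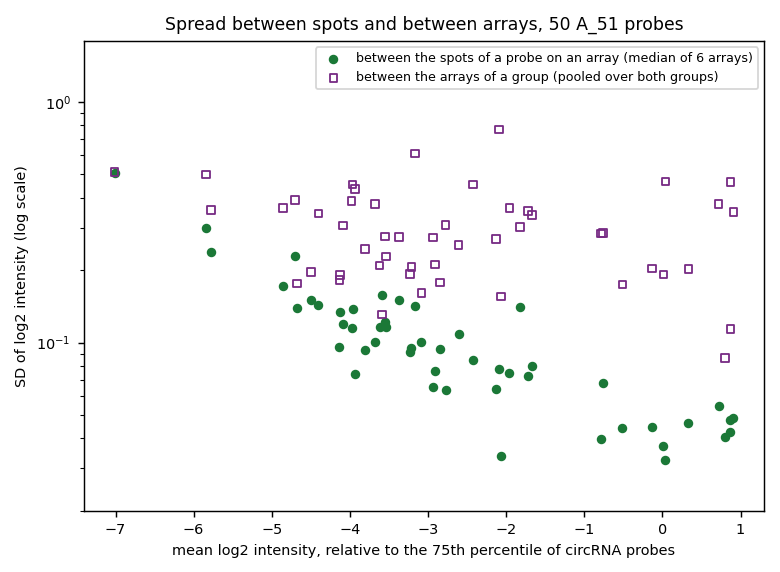
SD of log2 intensity (y axis, log scale) against mean level over 6 arrays (x axis) for the 50 A_51 probes, with green points for the SD among spots within an array and open purple squares for the SD between arrays of a group. The spot SD is largest at the dim end, at 0.51 for Cav2, and the squares lie above the points for 49 of 50 probes.

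Surgery was compared with control in limma over 14231 probes that were well above background on at least 3 arrays, 49 of them A_51 probes. A call needed a 1.5-fold difference or more together with p under 0.05 before adjustment. At that rule, 6 A_51 probes were lower in the surgery group (H2-Q7, Atg3, Olfr1307, Gabrg1, Gpi1 and the unpaired A_51_P425205) and 1 was higher (Ppara). The 7 calls are 14.3% of the 49, against 6.65% of all probes tested. The lower calls are 12.2% against 4.84%, and the higher call is 2.04% against 1.81%. No A_51 probe and none of all probes tested passed an adjusted p of 0.05 in limma, and the adjusted p of the A_51 probes ran from 0.30 to 0.96. At an unadjusted p under 0.05 alone, 9 A_51 probes (18.4%) passed, against 14.5% of all probes.

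The values of the A_51 probes leaned low in the surgery group. The log2 fold change, surgery minus control, was below 0 for 42 of 49 (85.7%), against 54.7% of all probes tested, with a median of -0.21 against -0.034. Scaled to the median of the other 44 probes printed 10 times, the median over the A_51 probes turned to 0.082, 16 of 49 differences were below 0, and the median of all probes moved up by 0.29. Such a scaling shifts every probe alike and leaves the distance between the A_51 median and that of all probes at -0.17. That distance was -0.059 under normexp background correction, -0.060 without surgery 1 and -0.37 when slide row was a block. The normexp run also added a constant of 50 to each intensity before the log. The other probes printed 10 times had medians of -0.24 (AS_circRNA_control), -0.24 (CUST) and -0.17 (the 9 NEGATIVE probes tested), and the dimmest of the 4 circRNA bins had -0.098. Surgery 1 was the lowest of the 6 arrays for 31 of 50 A_51 probes and control 3 the highest for 26, against 21.1% and 22.9% of circRNA probes. Without surgery 1 the median was -0.081 and 30 of 47 differences were below 0, and the part of these arrays, of dimness and of spot number in the lean was not tested.

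The groups did not overlap for 6 tested A_51 probes (12.2%), against 17.1% of all probes tested. The 5 with lower surgery arrays were H2-Q7, Atg3, Gsta4, Nup50 and Apoe (background 10.9%), and the 1 with higher surgery arrays was Ppara (background 6.2%). Position on the slide was tied to group: surgery 1 and the 3 controls lay in 1 row of arrays, and surgery 2 and 3 in the other. With the row as a block, which sets surgery 1 against the controls, 11 A_51 probes were called lower and 0 higher, against 729 lower and 141 higher of all 14231, and 4 of the 7 calls were shared (H2-Q7, Atg3, Olfr1307 and A_51_P425205). Of the 7, H2-Q7, Ppara and Olfr1307 were called under normexp background correction, H2-Q7 and Ppara when scaled to the other probes printed 10 times, and H2-Q7 and Atg3 by the test the study's methods name.

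**Figure D4:**
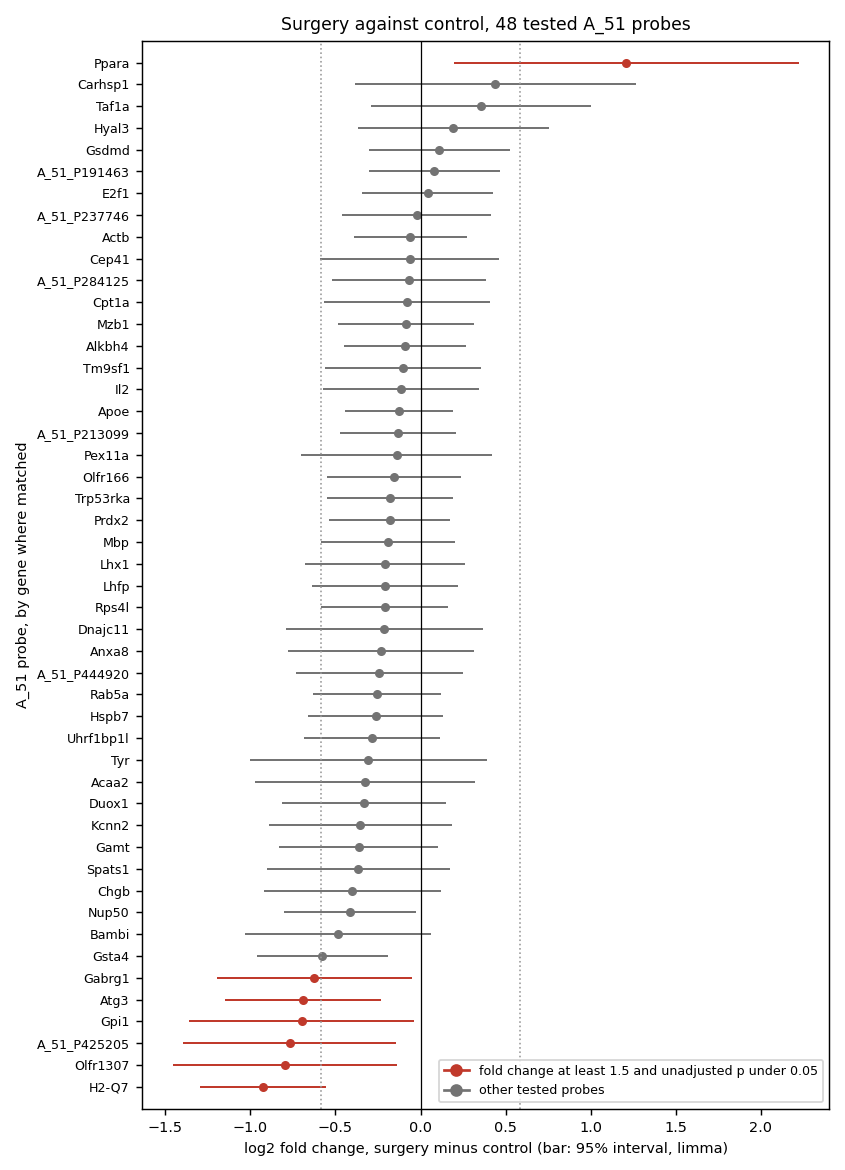
Log2 fold change, surgery minus control, of 48 of the A_51 probes tested, with 95% intervals from limma, the 7 calls in red and dotted lines at a fold change of 1.5. H2-Q7 is lowest at -0.92 and Ppara highest at 1.21.

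The functional groups below hold 2 to 7 probes each, too few to read a count of calls as a result about a group. Over all probes tested, 4.84% were called lower and 1.81% higher. Among 4 genes of immunity and cell death, 1 was called lower and the other 3 did not pass. H2-Q7 encodes a class Ib major histocompatibility molecule, a relative of those that show peptides to T cells. Its levels were -0.89, -0.84 and -1.19 on surgery arrays 1 to 3, and 0.01, -0.23 and 0.07 on control arrays 1 to 3. The means were -0.97 ± 0.19 and -0.049 ± 0.16 (SD, n = 3 each), and the groups were 0.61 apart at their nearest arrays. The H2-Q7 signal was lower in surgery by 0.92 (SE 0.16, 95% interval -1.29 to -0.56, adjusted p = 0.30 in limma). All 10 spots were lower in surgery, by -0.99 to -0.90. The call held under all 22 alternatives, between -1.01 and -0.63, and over them its adjusted p in limma ran from 0.020, without control 2, where 559 of 14189 probes passed 0.05, to 0.88, without control 3. H2-Q7 has near-identical neighbours of the Qa-2 family, and the probe may read them too. The values of Il2, a T cell cytokine (-0.11), Gsdmd, the pore former of pyroptosis (0.11), and Mzb1, a chaperone of antibody-making B cells (-0.086), were log2 differences whose 95% intervals held 0, and the levels of these 3 probes lay below the brightest NEGATIVE probe on every array.

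Among 7 genes of fat, sugar and amine metabolism, 1 was called higher, 1 was called lower and 5 did not pass. Ppara encodes the nuclear receptor PPAR-alpha, which switches on genes of fatty acid oxidation. Its levels were -1.97, -2.24 and -0.26 in surgery and -2.68, -2.53 and -2.87 in control. Surgery 3 stood far above the other arrays, and surgery 1 and surgery 2 lay above the controls by smaller margins. Ppara lay above the brightest NEGATIVE probe on surgery 1 and 3, and below it on surgery 2 and all 3 control arrays. The Ppara signal was higher in surgery by 1.21 (SE 0.44, 95% interval 0.20 to 2.22, adjusted p = 0.31 in limma). Without surgery 3 the difference was 0.60, just past the fold, and still a call. The call was lost without control 3 (1.12), with the row as a block (0.73) and under the test the study's methods name. Cpt1a, Acaa2 and Pex11a, known targets of PPAR-alpha singled out after their values were seen, had log2 differences of -0.079, -0.33 and -0.14, none of which passed. The levels of Cpt1a and Acaa2 lay within the range of the NEGATIVE probes on every array.

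Gpi1, glucose-6-phosphate isomerase, had levels of -0.28, 0.22 and -0.87 in surgery and 0.72, -0.02 and 0.47 in control. The groups overlapped, since surgery 2 lay above control 2. The Gpi1 signal was lower in surgery by 0.70 (SE 0.29, adjusted p = 0.32 in limma). The call was lost without surgery 1 (-0.71), surgery 3 (-0.42), control 1 (-0.53) or control 3 (-0.66), and with array weights (-0.54). Gamt, which makes creatine, had a log2 difference of -0.36 (SE 0.20, adjusted p = 0.42 in limma).

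Among 5 brain cell genes, 1 was called lower and 4 did not pass. Gabrg1 encodes a subunit of the GABA-A receptor, the main inhibitory receptor of the brain. Its levels were -4.34, -3.94 and -4.60 in surgery and -3.46, -4.16 and -3.37 in control, below the brightest NEGATIVE probe on every array. Control 2 lay within the surgery arrays. The Gabrg1 signal was lower in surgery by 0.62 (SE 0.25, adjusted p = 0.32 in limma). The call was lost without surgery 1 (-0.60), surgery 3 (-0.47), control 1 (-0.52) or control 3 (-0.48), and under quantile normalization (-0.51). Mbp had levels of 0.26, 0.28 and 0.18 in surgery and 0.52, 0.11 and 0.66 in control, a difference of -0.19 (SE 0.17). Apoe had 0.79, 0.82 and 0.62 in surgery and 0.84, 0.84 and 0.93 in control, a difference of -0.13 (SE 0.14) that turned to 0.16 when scaled to the other probes printed 10 times. Chgb, a granin of secretory vesicles, had a difference of -0.40 (SE 0.23, adjusted p = 0.42 in limma), and Kcnn2 was well above background on 1 surgery and 2 control arrays.

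Among 7 genes of trafficking, membranes and chaperones, 1 was called lower, 5 did not pass and Cav2 was not tested. Atg3 encodes an enzyme that attaches LC3 to lipid during autophagy. Its levels were -3.55, -3.03 and -3.25 in surgery and -2.71, -2.80 and -2.27 in control, with no overlap, and below the brightest NEGATIVE probe on every array. The Atg3 signal was lower in surgery by 0.69 (SE 0.20, adjusted p = 0.30 in limma). The call was lost without surgery 1 (-0.55) or control 3 (-0.53). It was also lost under normexp background correction with its added constant (-0.29) or scaling to the other probes printed 10 times (-0.40). Cav2 was not well above background on any array, at -8.02, -6.98 and -7.38 in surgery and -6.74, -6.96 and -6.00 in control, and no fold is given.

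Among 4 genes of other tissues, 1 was called lower and 3 did not pass. Olfr1307 had levels of 0.20, 0.89 and 0.33 in surgery and 0.84, 1.09 and 1.88 in control. Surgery 2 lay above control 1, so the groups overlapped. The Olfr1307 signal was lower in surgery by 0.80 (SE 0.29, adjusted p = 0.30 in limma). The call was lost without surgery 1 (-0.66), surgery 3 (-0.73) or control 3 (-0.49). Tyr was well above background on 1 surgery and 2 control arrays.

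Of the 6 probes with no gene paired, A_51_P425205 was called lower and 5 did not pass. Its levels were -4.76, -3.90 and -4.28 in surgery and -3.61, -3.95 and -3.08 in control, below the brightest NEGATIVE probe on every array. Control 2 lay below surgery 2. The A_51_P425205 signal was lower in surgery by 0.77 (SE 0.27, adjusted p = 0.30 in limma). The call was lost without surgery 1 (-0.54) or control 3 (-0.53).

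Gsta4, a glutathione transferase that clears lipid aldehydes, was 1 of 3 redox enzymes, none of which was called. Its levels were -3.40, -3.44 and -3.72 in surgery and -2.70, -3.10 and -3.03 in control, with no overlap. The log2 difference was -0.58 (SE 0.17, adjusted p = 0.30 in limma), which passed the unadjusted p and fell just short of the fold, and every level lay below the brightest NEGATIVE probe. Gsta4 was called lower without surgery 1, surgery 2, control 2 or control 3. The other two, Prdx2 and Duox1, had differences of -0.18 and -0.33, of which that of Prdx2 turned to 0.11 when scaled to the other probes printed 10 times.

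Nup50, a nuclear pore protein, was 1 of 6 genes of transcription, RNA and nuclear transport, none of which was called. Its levels were -4.49, -4.69 and -4.94 in surgery and -4.26, -4.47 and -4.15 in control. The log2 difference was -0.41 (SE 0.17, adjusted p = 0.32 in limma), which also passed the unadjusted p but not the fold, and its levels too lay below the brightest NEGATIVE probe. Carhsp1 and Taf1a, a subunit of the factor that starts ribosomal RNA synthesis, had positive differences of 0.44 and 0.36, with wide spread between arrays.

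None of the 4 developmental and cell cycle regulators was called. Bambi had a log2 difference of -0.49 (SE 0.24, adjusted p = 0.37 in limma) and Lhx1, a factor of neuron development, -0.21, which turned to 0.082 when scaled to the other probes printed 10 times. Neither of the 2 housekeeping and cytoskeleton genes was called. Actb had levels of 0.89, 0.95 and 0.68 in surgery and 0.84, 0.98 and 0.88 in control, a difference of -0.060 (SE 0.14) that turned to 0.23 under the same scaling. The 40 tested A_51 probes with an unadjusted p of 0.05 or more had differences between -0.49 and 0.44. The 95% interval, before adjustment, reached a median of 0.45 to either side of the difference, so changes of that size or smaller could be missed. Larger differences, such as -0.92 for H2-Q7 and 1.21 for Ppara, did not pass the adjusted p either.

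**Figure D5:**
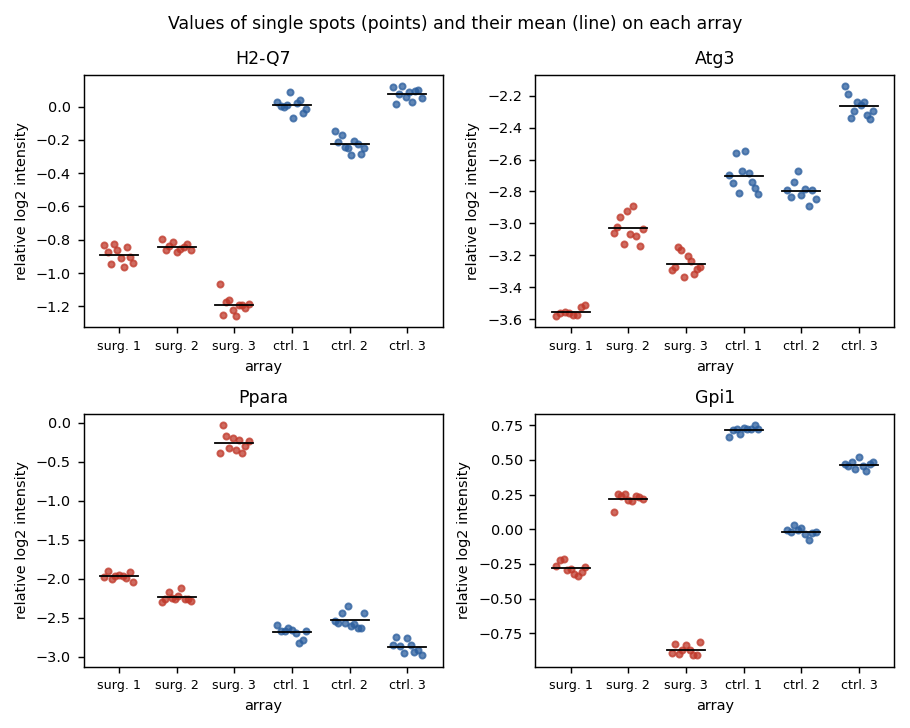
Levels of single spots (points, y axis) and their mean (line) on each of the 6 arrays (x axis) for H2-Q7, Atg3, Ppara and Gpi1, with surgery in red and control in blue and an axis range of its own in each panel. Spots of an array lie close together, and for H2-Q7 the 3 surgery arrays lie below the 3 control arrays, with means of -0.97 and -0.049.

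Spot by spot, all spots compared were lower in surgery for 34 A_51 probes, all were higher for 2 (Ppara and A_51_P191463) and both signs occurred for 14. The spots of 40 probes were scattered over all 4 equal blocks of array rows. The spots share the arrays, so their number adds nothing to the 3 mice per group.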

How the data were processed

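Arrays were scanned and read with Agilent Feature Extraction 11.0.1.1, per the submitters' processing notes. The authors deposited, for each array, the background-subtracted spot intensity on a linear scale, with median foreground and background and 0/1 spot flags. The deposited normalized table holds circRNA probes alone and was not used here. Spots marked uneven or outlying were left out, log2 intensities were averaged over the spots of a probe, and the 75th percentile over circRNA probes was subtracted from each array. A probe was well above background on an array where more than 0.5 of its unflagged spots were. Groups were compared with limma 3.58.1 (lmFit and eBayes, R 4.3.3), and p-values were adjusted by Benjamini-Hochberg over all probes tested. The fit was tested on simulated data. Plots used matplotlib 3.10.9.

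Accessions were paired with symbols through a RefSeq gene table. Its assembly differs from that of the array design, so no coordinates are given, and probe sequences were not analysed here. Genes were sorted by hand into groups of known function. The members and lists were chosen with earlier results of these data known. The text names every call, the 12 smallest p, the 4 brightest and 4 dimmest probes, the 3 largest and 3 smallest spot SDs, the 3 largest SDs within groups, and members of each functional group. Of the members, 1 probe is counted but is not reported here by itself or drawn by name. Each array is a separate mouse per the series' design. Same-numbered arrays did not deviate together (correlations 0.012, -0.55 and -0.23), so the numbers were not taken as pairs. All arrays came from 1 scan. Alternatives were other background correction (normexp on the median foreground, 50 added), scaling, filters, spot summaries and tests, blocks, and each array left out.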

Additional observations from a re-analysis of the deposited data

How the results depend on the processing

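Of 410 values of single named probes under alternatives, 8 changed direction, 35 lost a call and 12 gained one. With normexp background correction and its added constant of 50, 3 A_51 probes were called (2 lower), against 413 of all 14231 (297 lower). The median level against circRNA probes was then -0.86 and the median spot SD 0.044. Scaled to the median of the other probes printed 10 times, 4 were called, 3 higher and 1 lower (all 14231 probes: 1651 higher and 278 lower), against 1 higher and 6 lower as reported. The median was 0.082, and differences below 0 went from 42 to 16 of 49, with Actb (0.23), Apoe (0.16) and Prdx2 (0.11) among those that turned. The methods' test, a Student test on the same values, called 2 (0 higher, 2 lower), H2-Q7 and Atg3. Over all probes it called 261 of 14212 (94 higher, 167 lower). With array weights Actb turned to 0.024. With the slide row as a block, 11 were called (0 higher, 11 lower), the median was -0.41, and A_51_P191463 (-0.19) and Carhsp1 (-0.26) turned. Leaving out each array in turn gave 2 calls (without control 3) to 9 (without control 2), beside 511 of 14190 and 1966 of 14189 over all probes, with 0 to 3 higher and 2 to 8 lower. Higher calls were 3 without surgery 1 and 0 without control 3, and lower calls were 2 without either. Over all probes these were 386 and 118 higher, and 718 and 393 lower. The count past adjusted p 0.05 was 0 to 1, the 1 being H2-Q7 without control 2, where 559 of 14189 probes passed. Medians were -0.31 to -0.081, levels -1.58 to -1.49 and spot SDs 0.088 to 0.095. Actb ranged from -0.12 to 0.021 and A_51_P191463 from -0.042 to 0.22, both turning without surgery 3. With the replicate number as a block, 7 were called, all 7 shared, beside 1026 of 14228 over all probes. None of the A_51 probes passed the adjusted p there. The cause of these shifts was not tested. The deposited normalized values hold no A_51 probe, so that alternative was not run, and slide and scan had 1 level each. Dim probes, 32 of them at or below the brightest NEGATIVE probe, carry the least firm values.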
